A study of Mus musculus with 27 samples.

Results

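The Gata factors are the 6 genes Gata1, Gata2, Gata3, Gata4, Gata5 and Gata6 of the mouse, chosen by gene symbol from the 20156 genes of the expression tables, and all 6 symbols were found. Their mRNA and the chromatin at their promoters were followed through reprogramming of mouse embryonic fibroblasts (MEFs) to induced pluripotent stem cells (iPSCs). MEFs came from E13.5 embryos that were hemizygous for an Oct4-GFP transgene and for a Rosa26 allele, on a genetic background labelled CBA/CaJ and C57BL/6J, which the methods of the study give for the fathers, with mothers of the strain 129Sv/Jae, and were kept for only a few passages. Pre-iPSCs are a stable, partly reprogrammed state that was derived from such MEFs with the Yamanaka factors carried by retroviruses, and iPSCs are the fully reprogrammed cells. Pre-iPSCs and iPSCs had 6 passages before RNA-seq, and both were grown on feeder cells made from MEFs, in medium with LIF. The lines were 2 pre-iPSC clones and the iPSCs that correspond to them, and the clone behind each library is not given in the sources used here. RNA, histone H3, H3K4me3 and H3K27me3 were each measured in 2 replicates per cell type, and H3K9me3 in 1. The methods of the study call the replicates of RNA, H3, H3K4me3 and H3K27me3 biological, but no source used here says whether they came from separate cultures or embryos, so the p-values measure the spread between these libraries, part of which may be technical.

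GATA factors are zinc finger transcription factors that bind the sequence GATA in DNA. Gata1, Gata2 and Gata3 are best known from blood: Gata1 drives erythroid and megakaryocyte differentiation, Gata2 maintains hematopoietic stem and progenitor cells, and Gata3 directs T helper cells and trophoblast. Gata4, Gata5 and Gata6 act in heart and endoderm, and Gata4 and Gata6 also specify extraembryonic endoderm. H3K4me3 marks the promoters of active and poised genes, H3K27me3 is deposited by Polycomb repressive complex 2 and marks repressed developmental genes, H3K9me3 is found in heterochromatin, and the presence of H3K4me3 with H3K27me3 is called bivalency.

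In mm9 the RefSeq models place Gata1 at chrX:7536386-7544941 on the minus strand, Gata2 at chr6:88148658-88157026 on the plus strand, Gata3 at chr2:9778705-9800227 on the minus strand, Gata4 at chr14:63817752-63864097 on the minus strand and Gata5 at chr2:180059793-180069384 on the minus strand. The 250 bases upstream of the transcription start site (TSS) are given for 4 members. They are written 5′ to 3′ on the strand of the gene, with each CpG in capitals. Gata1 was taken for its few CpG and little H3K4me3, and Gata2 for the highest mRNA in MEFs. Gata4 was taken for the fall of H3K27me3 over its gene, which did not pass within 1000 bp of the TSS. Gata5 was taken for its gain of H3K4me3. The sequences were read from the NCBIM37 (mm9) assembly at chrX:7544942-7545191 (minus strand), chr6:88148408-88148657 (plus strand), chr14:63864098-63864347 (minus strand) and chr2:180069385-180069634 (minus strand), all of them 5′ flanking sequence of the RefSeq models.
Gata1: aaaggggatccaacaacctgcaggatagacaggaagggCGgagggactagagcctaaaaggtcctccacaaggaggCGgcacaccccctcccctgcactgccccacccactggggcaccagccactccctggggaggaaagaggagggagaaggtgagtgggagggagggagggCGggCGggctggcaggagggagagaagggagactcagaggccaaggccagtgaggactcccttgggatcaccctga
Gata2: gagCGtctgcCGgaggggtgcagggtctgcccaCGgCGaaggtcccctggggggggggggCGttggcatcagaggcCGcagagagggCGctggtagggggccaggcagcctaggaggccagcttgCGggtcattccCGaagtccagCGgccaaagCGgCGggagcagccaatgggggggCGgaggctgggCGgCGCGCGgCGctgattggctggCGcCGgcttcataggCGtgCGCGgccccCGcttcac
Gata4: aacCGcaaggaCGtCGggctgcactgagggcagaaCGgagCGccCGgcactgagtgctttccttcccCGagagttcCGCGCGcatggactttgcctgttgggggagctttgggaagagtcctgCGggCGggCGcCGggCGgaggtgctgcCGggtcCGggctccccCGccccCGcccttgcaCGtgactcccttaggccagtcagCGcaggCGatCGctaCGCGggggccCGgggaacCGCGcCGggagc
Gata5: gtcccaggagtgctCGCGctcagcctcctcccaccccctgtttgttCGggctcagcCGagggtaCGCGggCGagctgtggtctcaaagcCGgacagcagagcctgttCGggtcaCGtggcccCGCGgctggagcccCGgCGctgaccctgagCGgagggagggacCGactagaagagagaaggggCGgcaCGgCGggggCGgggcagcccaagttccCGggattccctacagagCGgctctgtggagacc

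Gata6 lies at chr18:11052508-11085633 on the plus strand. Gata4 is the longest member at 46.3 kb, and Gata2 the shortest at 8.37 kb. The Gata1 stretch holds 4 CpG, and those of Gata2, Gata4 and Gata5 hold 24, 29 and 22. Upstream of Gata3 and Gata6 the same length held 19 and 11 CpG, and the median over all 20156 promoters was 11. Within 500 bp of the TSS, Gata1 had 16 CpG, more than 26.4% of all promoters, while Gata2 had 69, Gata3 46, Gata4 63, Gata5 72 and Gata6 64, against a median of 47. The family thus divided into 1 promoter poor in CpG and 5 with a CpG content near or above the median. The motif GATA preceded by A or T and followed by A or G, searched on both strands, was found in the 250 upstream bases of 0 of 6 members and of 23.3% of all promoters. Within 500 bp of the TSS it was found in 5 of 6 members, all but Gata5, and in 60.8% of all promoters.

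The mRNA was measured as FPKM, fragments scaled to the length of the transcript and to the mapped fragments of the library, and the scale is per length, so members can be set side by side. In MEFs the highest member was Gata2, followed by Gata6 and Gata3, whose values overlapped. In pre-iPSCs Gata1, Gata2 and Gata4 lay highest and overlapped one another, with Gata3 and then Gata6 below them. In iPSCs Gata4 was highest, Gata6 second, and Gata2, Gata3 and Gata1 lay lower with overlapping values. Gata5 was at or close to 0 throughout. All of these levels were low: the largest single value of the family was 7.14 FPKM, which exceeded that of 66.5% of genes in the same library, and 10370 to 10995 genes per library reached 1 FPKM. In bulk RNA, fewer cells with a transcript and less of it per cell cannot be told apart.

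**Figure D1:**
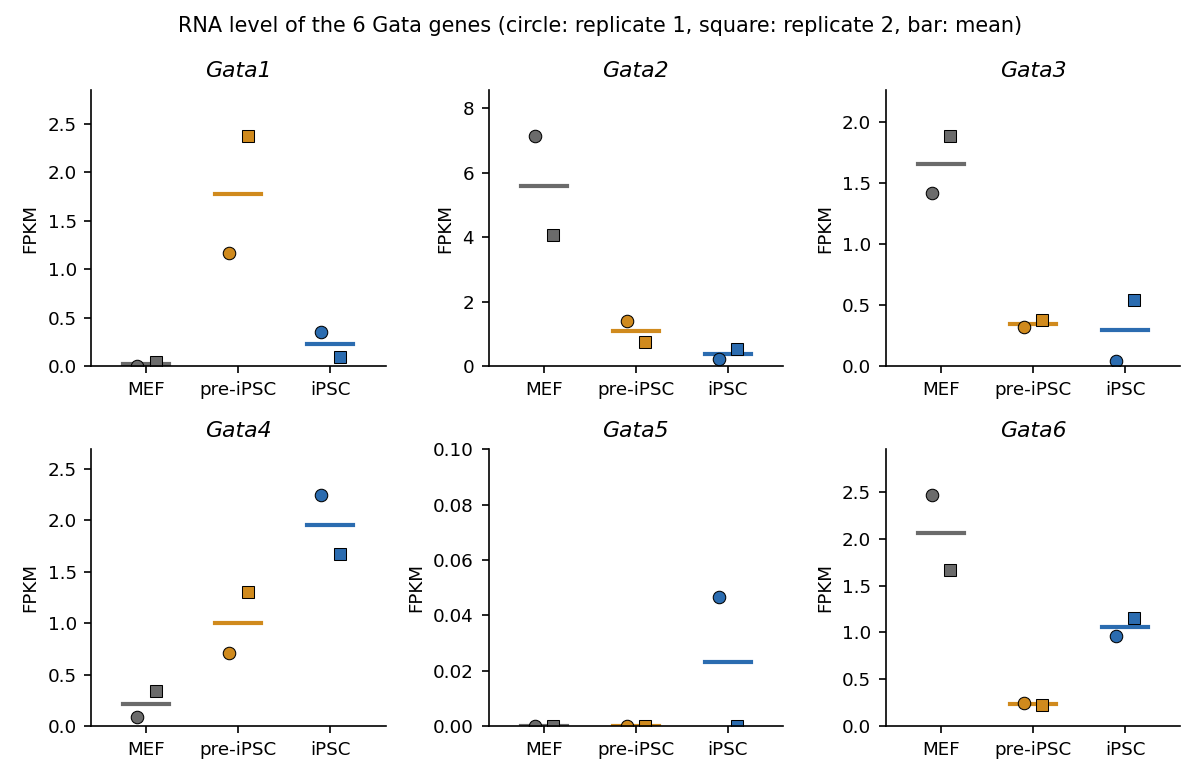
FPKM of the 6 Gata genes in MEFs, pre-iPSCs and iPSCs, on a linear axis of its own for each gene, with circles for replicate 1, squares for replicate 2 and bars at the mean of the cell type. Gata2, Gata3 and Gata6 are highest in MEFs, Gata1 in pre-iPSCs at 1.17 and 2.38 FPKM, Gata4 in iPSCs at 2.24 and 1.67 FPKM, and Gata5 lies at or near 0.

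Of the 5 members above the filter of a mean of 0.5 FPKM, 1 rose and 2 fell from MEFs to pre-iPSCs, where 7.39% of the 12401 tested genes were called higher and 9.0% lower. From MEFs to iPSCs 1 rose and 2 fell, against 10.3% of genes called higher and 15.5% called lower. Between pre-iPSCs and iPSCs 0 of 5 were called, against 8.62% of all genes, with 2 of 5 members and 2684 of 12401 genes at an unadjusted p below 0.05. A call required a Benjamini-Hochberg adjusted p below 0.05 by limma over all tested genes and a log2 change of at least 1 on the scale log2(FPKM + 1), which understates the change of genes as low as these. The median log2 change of the 5 members was -0.97 from MEFs to pre-iPSCs, -0.09 from there to iPSCs and -0.56 from MEFs to iPSCs, and that of all tested genes was -0.04, -0.09 and -0.14. The 3 comparisons share their libraries. All member calls in expression were lost when genes of every level were tested together, with no limma adjusted p of a member below 0.116 in pre-iPSCs against MEFs or below 0.0769 in iPSCs against MEFs. That fit called 0 of 20156 genes in pre-iPSCs against MEFs, with 4116 at an unadjusted p below 0.05, and 549 in iPSCs against MEFs, so the loss was general and not one of the members.

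Gata1, the erythroid and megakaryocytic factor, was 0 and 0.0447 FPKM in the MEF libraries, 1.17 and 2.38 in those of pre-iPSCs and 0.358 and 0.102 in those of iPSCs. Both pre-iPSC libraries lay above the other 4, and the iPSC values lay above those of MEFs. These FPKM correspond to about 0, 1, 25, 57, 8 and 2 sequenced fragments, as estimated from the steps of the deposited values. Gata1 averaged 0.675 FPKM over the 6 libraries and passed the filter of 0.5 FPKM only through the pre-iPSC libraries. Their mean was 1.77 FPKM, against 0.0224 in MEFs and 0.230 in iPSCs, so the test does not stand apart from those values. On the log2 scale the rise from MEFs to pre-iPSCs was 1.40 ± 0.32 (SE, limma adjusted p = 0.0256), with both pre-iPSC libraries above both MEF libraries. The iPSC level was lower than the pre-iPSC level by a log2 change of -1.15 ± 0.32 (SE), which missed the threshold (limma adjusted p = 0.0765). Without the first MEF library, the second MEF library or the first pre-iPSC library the adjusted p by limma of this fall was 0.0157, 0.0111 and 0.0188. Without the second pre-iPSC library Gata1 dropped below the filter on low values and was not tested. With a minimum mean of 1 FPKM it was not tested either.

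Gata2, the factor of hematopoietic stem and progenitor cells, was 7.14 and 4.06 FPKM in the MEF libraries, 1.41 and 0.771 in those of pre-iPSCs and 0.238 and 0.539 in those of iPSCs. The 3 cell types did not overlap and fell in that order. The fall from MEFs was -1.63 ± 0.37 (SE) in pre-iPSCs (limma adjusted p = 0.0254) and -2.22 ± 0.37 in iPSCs (limma adjusted p = 0.00636) on the log2 scale. The further difference of -0.58 between iPSCs and pre-iPSCs did not pass (limma adjusted p = 0.446). The fall to pre-iPSCs was lost without the first or the second pre-iPSC library (limma adjusted p = 0.0622 and 0.155) and, at larger falls, with log2(FPKM + 0.1) (-2.26, limma adjusted p = 0.0526) and with edgeR on the estimated fragments (-2.28, adjusted p = 0.0644). The fall to iPSCs was lost without the first iPSC library (limma adjusted p = 0.0653) and kept on the estimated fragments (edgeR adjusted p = 0.0134).

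Gata3, known from T cells and trophoblast, was 1.42 and 1.89 FPKM in the MEF libraries, 0.325 and 0.378 in those of pre-iPSCs and 0.0480 and 0.544 in those of iPSCs. Both MEF libraries lay above the other 4, and the iPSC libraries lay on either side of the pre-iPSC values. Gata3 averaged 0.768 FPKM and passed the filter of 0.5 FPKM only through the MEF libraries. Their mean was 1.66 FPKM, against 0.351 in pre-iPSCs and 0.296 in iPSCs, so its tests do not stand apart from those values. The fall from MEFs to iPSCs passed at a log2 change of -1.06 ± 0.30 (SE, limma adjusted p = 0.0370), and the change of -0.97 ± 0.30 in pre-iPSCs did not (limma adjusted p = 0.0661). The first was lost without any 1 of the MEF or iPSC libraries, with limma adjusted p of 0.0710 and 0.0562 without the first and second MEF library and of 0.194 and 0.0885 without the first and second iPSC library. It was also lost, at a larger fall, with edgeR on the estimated fragments (-2.66, adjusted p = 0.0958). The antisense transcript Gm13256 overlaps Gata3 by 1345 bp, including its TSS, and since the strandedness of the libraries is not given in the sources used here, its reads and those of Gata3 cannot be told apart.

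Gata4, a factor of heart and endoderm, was 0.0876 and 0.339 FPKM in the MEF libraries, 0.707 and 1.30 in those of pre-iPSCs and 2.24 and 1.67 in those of iPSCs. The order was the reverse of that of Gata2, again with no overlap between cell types. The rise from MEFs to iPSCs was 1.29 ± 0.32 on the log2 scale (SE, limma adjusted p = 0.0265), while the steps of 0.72 from MEFs to pre-iPSCs and 0.57 from pre-iPSCs to iPSCs did not pass (limma adjusted p = 0.183 and 0.381). About 3 and 15 fragments stood behind the MEF values and 99 and 65 behind the iPSC values. The rise was kept with edgeR on the estimated fragments (adjusted p = 0.0264) and lost without the first MEF library or either iPSC library (limma adjusted p = 0.0690, 0.155 and 0.0570).

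Gata5, which acts in heart and gut endoderm, was listed at 0 FPKM in 5 of the 6 libraries and at 0.0466 FPKM in the first iPSC library, which is about 2 fragments. It was not tested. Its first bases overlap the protein-coding gene Gm14318 of the opposite strand by 1823 bp.

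Gata6, a factor of primitive endoderm and heart, was 2.46 and 1.66 FPKM in the MEF libraries, 0.251 and 0.224 in those of pre-iPSCs and 0.966 and 1.15 in those of iPSCs. The pre-iPSC libraries were the lowest, MEFs were the highest and iPSCs lay between them without overlap. The fall from MEFs to pre-iPSCs was -1.29 ± 0.31 (SE) on the log2 scale (limma adjusted p = 0.0304) and was kept with edgeR on the estimated fragments (adjusted p = 0.0385). The opposite-strand lincRNA 1010001N08Rik covers the TSS of Gata6 and overlaps the gene by 58 bp, and reads of that stretch cannot be assigned to either gene without strand. The difference of 0.73 ± 0.31 between iPSCs and pre-iPSCs and that of -0.56 between iPSCs and MEFs did not pass (limma adjusted p = 0.230 and 0.224). The fall to pre-iPSCs was lost without the first MEF library, the first or second pre-iPSC library or the second iPSC library (limma adjusted p = 0.0822, 0.156, 0.129 and 0.0529).

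Markers of fibroblasts, pluripotency and blood were read in the same libraries, and whether they moved with the Gata genes was not tested. The summed FPKM of 12 fibroblast markers was 8981 and 9898 in the MEF libraries, 1400 and 1098 in those of pre-iPSCs and 535 and 688 in those of iPSCs, with none of the 12 at 0 in any library. Of these 12, 9 fell from MEFs to pre-iPSCs, led by Col1a2, Col1a1, Prrx1 and Col3a1 (log2 changes of -5.41, -5.16, -3.86 and -3.77), and 10 fell to iPSCs, led by Col1a2, Col1a1, Prrx1 and Vim (-4.91, -4.66, -4.04 and -4.01), while 0 were called between pre-iPSCs and iPSCs. The 14 measured pluripotency markers summed to 16.9 and 49.5 in the MEF libraries, 947 and 3763 in those of pre-iPSCs and 2666 and 2575 in those of iPSCs. Of these 14, 6 rose from MEFs to pre-iPSCs, led by Pou5f1, Tdgf1, Sox2 and Fgf4 (log2 changes of 9.81, 8.05, 7.59 and 4.24), where transcripts of the reprogramming viruses and of the endogenous Pou5f1 and Sox2 cannot be told apart. From pre-iPSCs to iPSCs 10 rose, led by Dppa5a, Zfp42, Esrrb and Nanog (7.60, 5.87, 5.70 and 5.64), and all 14 rose from MEFs to iPSCs, led by Dppa5a, Pou5f1, Utf1 and Tdgf1 (9.41, 8.62, 8.44 and 8.42). Nanog was at 0 in both MEF libraries and in the second pre-iPSC library, at 0.519 FPKM in the first pre-iPSC library and at 49.5 and 73.6 in iPSCs. It thus passed the filter of 0.5 FPKM only through the iPSC libraries, and its tests do not stand apart from those values. The 12 blood markers summed to only 4.18 and 1.12 FPKM in the MEF libraries, 3.47 and 2.98 in those of pre-iPSCs and 13.6 and 28.4 in those of iPSCs, with 4 to 7 of them at 0 per library. The part of the MEF feeder cells, or of any other cell type, in the levels of the Gata genes was not tested.

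Among partners and relatives of the GATA factors, Zfpm2, Runx1 and Gatad1 were lower and Zglp1 was higher in iPSCs than in MEFs. Of 6 tested GATA cofactors, among 11 measured of a list of 12, 1 fell from MEFs to pre-iPSCs, 0 changed between pre-iPSCs and iPSCs and 2 fell from MEFs to iPSCs, with median log2 changes of -0.87, -0.01 and -0.56. Over all tested genes 9.0% were lower in pre-iPSCs and 15.5% lower and 10.3% higher in iPSCs against MEFs, and from counts this small nothing particular to the list can be read. Zfpm2, also called FOG2, the partner of Gata4 in the heart, was 6.47 and 1.88 FPKM in the MEF libraries, 0.536 and 0.183 in those of pre-iPSCs and 0.167 and 0.413 in those of iPSCs. Zfpm2 fell by a log2 change of -1.78 in pre-iPSCs (limma adjusted p = 0.0304) and of -1.85 in iPSCs (limma adjusted p = 0.0194), and both of its MEF values lay above the other 4. Zfpm2 passed the filter of 0.5 FPKM only through the MEF libraries, so its tests do not stand apart from those values. Runx1, a master regulator of blood formation that works with GATA factors, fell from 12.4 and 5.44 FPKM in MEFs to 0.671 and 1.70 in iPSCs (log2 change -2.13, limma adjusted p = 0.0210). Zfpm1, or FOG1, the cofactor of Gata1, was 9.57 and 4.31 FPKM in the MEF libraries, 1.89 and 1.89 in those of pre-iPSCs and 4.56 and 2.34 in those of iPSCs and passed in none of the comparisons. Among 5 relatives with a GATA-type zinc finger, Zglp1, a gene of germ cells, was 0.688 and 0.176 FPKM in the MEF libraries, 0.555 and 0.330 in those of pre-iPSCs and 7.14 and 4.21 in those of iPSCs. Zglp1 rose in iPSCs by 2.18 over pre-iPSCs (limma adjusted p = 0.00810) and by 2.21 over MEFs (limma adjusted p = 0.00377), both on the log2 scale. Zglp1 passed the filter of 0.5 FPKM only through the iPSC libraries, so its tests do not stand apart from those values. Gatad1, a chromatin-bound zinc finger protein, fell by a log2 change of -1.26 in iPSCs against MEFs (limma adjusted p = 0.0467).

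Genes that mark the lineages in which GATA factors act were counted in the same way, beside the shares of all genes of 9.0% lower and 7.39% higher in pre-iPSCs and 15.5% lower and 10.3% higher in iPSCs against MEFs, and of 8.62% called in either direction between iPSCs and pre-iPSCs. The lists were not tested against other genes. Of 10 tested genes of extraembryonic endoderm, 5 fell from MEFs to pre-iPSCs with a median log2 change of -1.44, and 4 fell and 1 rose from MEFs to iPSCs with a median of -1.33, while 0 of 10 were called between pre-iPSCs and iPSCs by limma. The 4 that fell most in pre-iPSCs were Sparc, Dab2, Col4a1 and Col4a2 (log2 changes of -3.76, -2.56, -2.16 and -2.06), which encode secreted matrix and endocytic proteins that fibroblasts express as well. The same 4 were those lower in iPSCs than in MEFs, with log2 changes of -3.59, -2.17, -3.23 and -3.39. Amn, a receptor subunit of visceral endoderm, rose from 0.188 and 0.0484 FPKM in MEFs to 1.11 and 3.57 in iPSCs (log2 change 1.48, limma adjusted p = 0.0275). Sox17, which acts beside Gata4 and Gata6 in endoderm, was listed at 0 in the MEF and pre-iPSC libraries and at 0.197 and 0.252 FPKM in iPSCs and was not tested. Of 6 tested cardiac genes, 2 fell from MEFs to pre-iPSCs, Hand2 (-2.19) and Tbx5 (-1.21), both regulators of heart and limb development. From pre-iPSCs to iPSCs 1 cardiac gene fell, Nppb (-2.01), a natriuretic peptide that Gata4 activates in heart muscle, and 4 fell from MEFs to iPSCs. These were Nppb (-2.64), Hand2 (-2.14), Tbx5 (-1.29) and Mef2c (-1.17), the last a transcription factor of muscle.

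Of 3 tested trophoblast genes, Tead4, which specifies trophectoderm, was 4.84 and 0.764 FPKM in the MEF libraries, 18.2 and 14.3 in those of pre-iPSCs and 1.22 and 1.05 in those of iPSCs. Tead4 thus had its highest values in both pre-iPSC libraries, as Gata1 did, and changed by 2.41 in pre-iPSCs against MEFs and by -3.0 in iPSCs against pre-iPSCs on the log2 scale (limma adjusted p = 0.0152 and 0.0111). Eomes rose from MEFs to iPSCs by 1.10 (limma adjusted p = 0.0481). Of 4 tested blood genes, 2 rose from pre-iPSCs to iPSCs, Kit, a receptor of stem and germ cells that Gata1 and Gata2 regulate in blood, by 2.39 and Cd3e, a T cell receptor subunit, by 1.63 on the log2 scale (limma adjusted p = 0.0218 and 0.0129). Against MEFs the same 2 blood genes were higher in iPSCs, Kit by 3.53 and Cd3e by 1.63, and 0 of 4 were called in pre-iPSCs.

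Of 4 tested endothelial genes, 1 rose and 1 fell in each comparison. Tek, the angiopoietin receptor, was 0.0210 and 0.0325 FPKM in the MEF libraries, 12.7 and 3.94 in those of pre-iPSCs and 0.715 and 0.921 in those of iPSCs. Tek was thus highest in both pre-iPSC libraries, with log2 changes of 3.01 against MEFs and -2.18 from there to iPSCs (limma adjusted p = 0.00622 and 0.0295). Tek passed the filter of 0.5 FPKM only through the pre-iPSC libraries, so its tests do not stand apart from those values. Flt1, a VEGF receptor, fell against MEFs by a log2 change of -2.18 in pre-iPSCs and -2.84 in iPSCs. Egfl7, a secreted protein of vessels, rose in iPSCs by 2.37 over pre-iPSCs and by 2.15 over MEFs on the log2 scale.

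H3K4me3 was counted as the reads of called nucleosomes with their centre within 1000 bp of the TSS and is given as RPKM, reads scaled to the length of the window and to the unique reads of the library. H3K4me3 around the TSS of Gata5 rose while its mRNA stayed at or near 0, and no change passed at the other members. The opposite-strand gene Gm14318 covers this TSS, but its annotated start lies inside Gata5, at the far end of their 1823-bp overlap and outside the window. The part of Gm14318 in the mark was not tested. At Gata6 the opposite-strand lincRNA 1010001N08Rik starts within the 58 bp that the 2 genes share. Their H3K4me3 therefore cannot be told apart. Of 6 tested members, 1 rose from MEFs to pre-iPSCs, where 3.05% of 17700 tested promoters were called higher, and 1 rose from MEFs to iPSCs, where 9.74% were. From pre-iPSCs to iPSCs 0 of 6 members and 0% of promoters were called by edgeR's quasi-likelihood test, with 0 members and 1581 promoters at an unadjusted p below 0.05, and DESeq2 also called 0. MEF chromatin was digested with more MNase for a shorter time than the chromatin of pre-iPSCs and iPSCs, so the digestion and the cell type cannot be told apart in any chromatin comparison with MEFs.

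Gata5 had 0.711 and 0.446 RPKM of H3K4me3 in the MEF libraries, 1.47 and 1.14 in those of pre-iPSCs and 1.52 and 1.25 in those of iPSCs. These values come from 21 and 14, 48 and 35, and 49 and 38 reads. The 2 MEF libraries were the lowest, and pre-iPSCs and iPSCs overlapped. The rise was 1.56 ± 0.30 on the log2 scale (SE, 2.95-fold, edgeR adjusted p = 0.00110) in pre-iPSCs and 1.61 ± 0.30 (3.05-fold, edgeR adjusted p = 0.000363) in iPSCs. With libraries scaled to their unique reads in place of TMM, the rises were 1.18 and 1.26 on the log2 scale (edgeR adjusted p = 0.0288 and 0.010). The median log2 change of all promoters was then -0.40 and -0.38, against -0.01 and -0.03 with TMM. DESeq2 kept the rise in iPSCs and lost that in pre-iPSCs (adjusted p = 0.106).

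Gata1 had little H3K4me3 in any cell type, with 0.169 and 0.382 RPKM in the MEF libraries, 0.307 and 0.195 in those of pre-iPSCs and 0.217 and 0.329 in those of iPSCs. This was 5 to 12 reads per library, and the cell types overlapped, also in pre-iPSCs where the mRNA was highest. The median over all promoters was 0.812 to 1.22 RPKM per library. Gata2 had 2.10 and 1.53 RPKM in the MEF libraries, 1.44 and 1.72 in those of pre-iPSCs and 1.43 and 1.55 in those of iPSCs. Gata2 therefore kept overlapping H3K4me3 levels in cell types whose mRNA levels did not overlap. Gata3 had 1.79 and 1.94 RPKM in the MEF libraries, 1.07 and 1.17 in those of pre-iPSCs and 1.68 and 1.25 in those of iPSCs, and Gata6 had 1.86 and 1.53, 1.35 and 1.14, and 1.92 and 1.32. In both, the pre-iPSC libraries held the lowest value of the 6, and no change passed. Gata4 had 1.15 and 1.34 RPKM in the MEF libraries, 1.26 and 1.43 in those of pre-iPSCs and 1.52 and 1.55 in those of iPSCs. The iPSC values of Gata4 were the highest, and the log2 change of 0.63 against MEFs missed the threshold (edgeR adjusted p = 0.0835) but passed within 2000 bp of the TSS (0.65, edgeR adjusted p = 0.0178), where 2793 of 19119 promoters were called higher against 1724 of 17700 within 1000 bp.

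**Figure D2:**
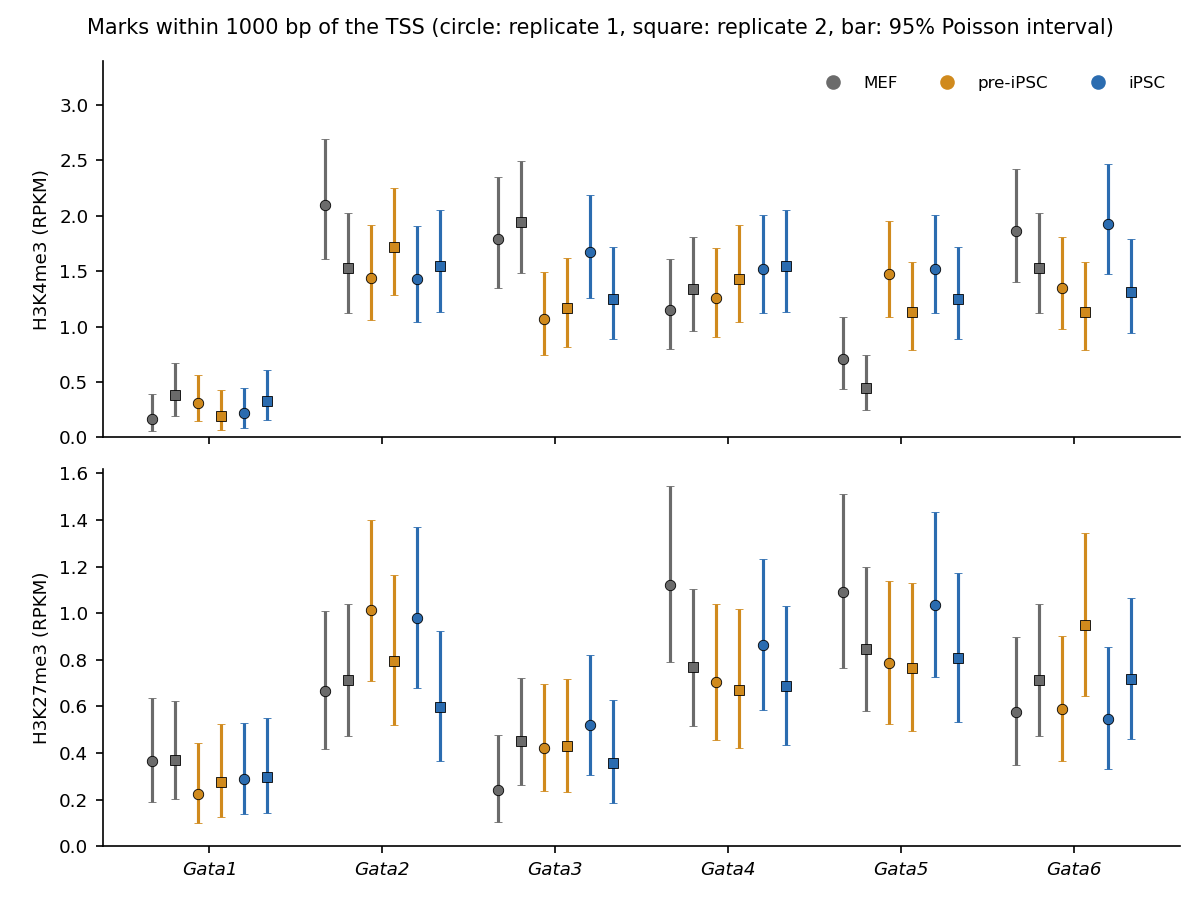
H3K4me3 (above) and H3K27me3 (below) in RPKM within 1000 bp of the TSS of each Gata gene, with circles for replicate 1 and squares for replicate 2 of MEFs, pre-iPSCs and iPSCs and bars for the 95% Poisson interval of counting error. H3K4me3 of Gata5 is lowest in the MEF libraries at 0.711 and 0.446 RPKM, Gata1 lies below the other members in H3K4me3, and in H3K27me3 Gata1 and Gata3 lie lowest.

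Within 1000 bp of the TSS, H3K27me3 of 0 of 6 members changed in any comparison by edgeR's quasi-likelihood test, with 0 at an unadjusted p below 0.05 and 0 by DESeq2. Of the 10407 tested promoters, 8.10% were called between MEFs and pre-iPSCs, 0.798% between pre-iPSCs and iPSCs and 11.2% between MEFs and iPSCs. In every library each member lay above the median promoter, which was at 0.182 to 0.259 RPKM, except Gata1 at about that level in the first pre-iPSC library, where both were 0.225. Gata4 ranged from 0.672 to 1.12 RPKM, Gata5 from 0.764 to 1.09, Gata2 from 0.597 to 1.01, Gata6 from 0.547 to 0.947, Gata3 from 0.242 to 0.518 and Gata1 from 0.225 to 0.371. Gata1 and Gata3 had the lowest values of the family in every library, and Gata2, Gata4, Gata5 and Gata6 overlapped one another.

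Over the whole gene, from start to end of the RefSeq model, H3K27me3 fell at Gata4. Of 6 members, 1 fell in pre-iPSCs against MEFs, where 11.5% of 17662 tested genes were called lower. In iPSCs against MEFs 2 fell and 1 rose, where 12.7% were called lower and 14.2% higher. In iPSCs against pre-iPSCs 0 members were called by edgeR, with 0 at an unadjusted p below 0.05 and 0 by DESeq2, against 1.06% of all genes. The members called here moved the same way in H3K9me3 over the gene, from 1 library per cell type and not tested. In MEFs, pre-iPSCs and iPSCs it was 0.622, 0.497 and 0.474 RPKM at Gata4, 0.188, 0.403 and 0.625 at Gata2, and 0.391, 0.182 and 0.186 at Gata1. In the same order, mean H3K4me3 over the gene was 0.478, 0.518 and 0.560 RPKM at Gata4 and 0.993, 0.842 and 1.11 at Gata2. At Gata1 it was 0.193, 0.248 and 0.265. Whether the changes below are particular to H3K27me3 was not tested.

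Gata4 had 0.892 and 0.839 RPKM of H3K27me3 over the gene in the MEF libraries, 0.621 and 0.537 in those of pre-iPSCs and 0.540 and 0.595 in those of iPSCs. These were 682 and 734 reads in the MEF libraries, 511 and 407 in those of pre-iPSCs and 434 and 462 in those of iPSCs. Both MEF libraries lay above the other 4, which overlapped. The fall was -0.84 ± 0.16 (SE, 1.79-fold lower, edgeR adjusted p = 0.00086) in pre-iPSCs and -0.87 ± 0.16 (1.82-fold lower, edgeR adjusted p = 0.00050) in iPSCs on the log2 scale. It was kept in all 12 alternatives tried for each comparison, between -1.0 and -0.58 in pre-iPSCs and between -1.05 and -0.61 in iPSCs. Scaling to unique reads shifted the median gene by 0.31 and 0.33 and gave the smallest falls, -0.58 and -0.61. Gata4 was at the same time the member whose mRNA rose from MEFs to iPSCs, and Gata2 had the reverse of both. The other members tested for expression did not follow this. H3K27me3 over Gata1 was called lower in iPSCs against MEFs, while its mRNA change of 0.26 was not called. Gata3 mRNA was called lower, at a log2 change of H3K27me3 over the gene of -0.0049. Gata6 was called in neither. A link between mRNA and H3K27me3 was not tested.

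Gata2, whose mRNA fell, had 0.406 and 0.513 RPKM of H3K27me3 over the gene in the MEF libraries, 0.841 and 0.709 in those of pre-iPSCs and 0.916 and 0.770 in those of iPSCs. The MEF libraries were the lowest, without overlap. H3 over Gata2 was 0.218 and 0.294 RPKM in the MEF libraries, 1.64 and 0.269 in those of pre-iPSCs and 0.949 and 0.305 in those of iPSCs. The rise in iPSCs against MEFs was 0.62 ± 0.23 on the log2 scale (SE, edgeR adjusted p = 0.0484), and that of 0.50 in pre-iPSCs did not pass (edgeR adjusted p = 0.117). The call was lost in 11 of 12 alternatives, among them the fit without any 1 of the 6 libraries (edgeR adjusted p of 0.205 and 0.0817 without the first and second MEF library, 0.0821 and 0.0711 without the pre-iPSC libraries and 0.227 and 0.0703 without the iPSC libraries).

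**Figure D3:**
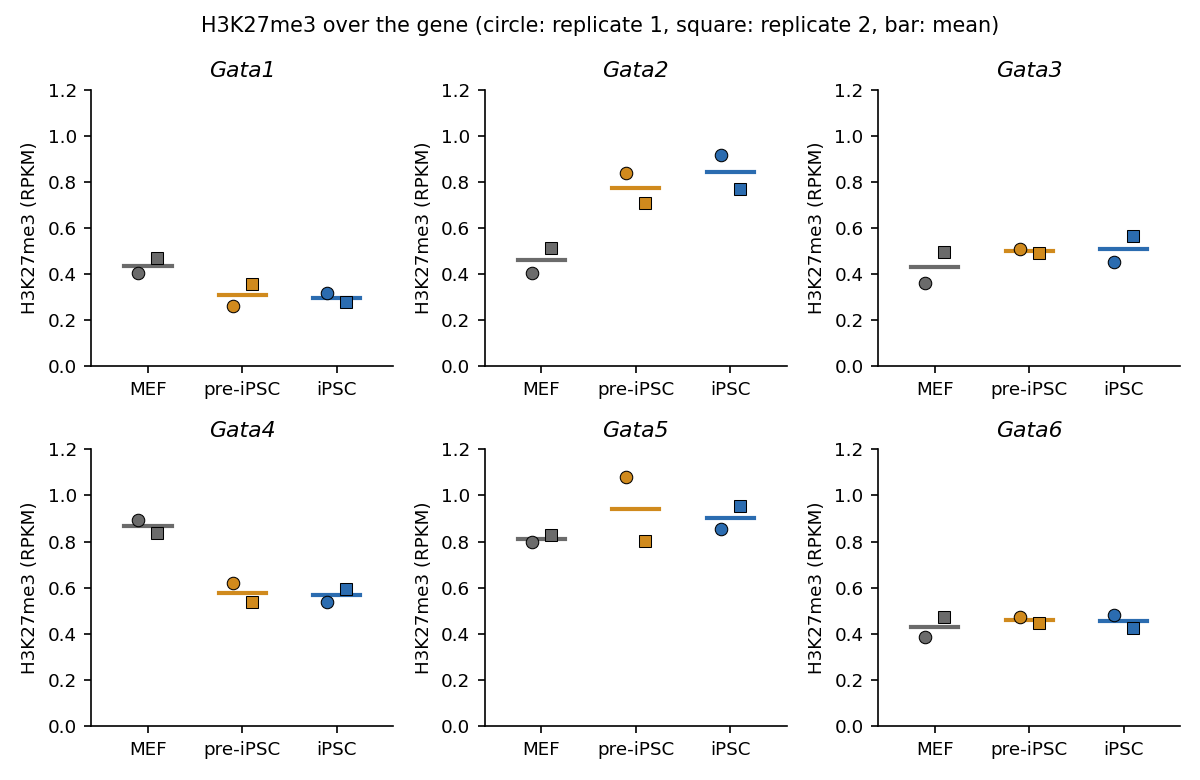
H3K27me3 in RPKM over the RefSeq model of each Gata gene, with 1 point per library in MEFs, pre-iPSCs and iPSCs. Gata4 is highest in MEFs at 0.892 and 0.839 RPKM, and Gata2 is lowest in MEFs at 0.406 and 0.513 RPKM.

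Gata1 had 0.404 and 0.471 RPKM of H3K27me3 over the gene in the MEF libraries, 0.263 and 0.357 in those of pre-iPSCs and 0.317 and 0.279 in those of iPSCs. Both MEF values lay above the other 4. The fall from MEFs to iPSCs was -0.81 ± 0.27 on the log2 scale (SE, edgeR adjusted p = 0.0343), and that of -0.74 to pre-iPSCs missed the threshold (edgeR adjusted p = 0.0559). The fall to iPSCs was lost in 6 of 12 alternatives, among them the fits without the first or second MEF library or the first iPSC library (edgeR adjusted p = 0.104, 0.108 and 0.0896). Scaled to unique reads, with a median log2 change of all genes of 0.33 against 0.07 with TMM, the fall to iPSCs was -0.55 and did not pass (edgeR adjusted p = 0.147). The fall to pre-iPSCs passed without the first or second iPSC library (edgeR adjusted p = 0.0280 and 0.0276) and with the RLE factors (0.0343). Gata1 is on chromosome X, and chromosome X held 3.31% and 3.56% of the H3K27me3 reads in MEFs, 2.25% and 2.20% in the pre-iPSC and 2.29% and 2.45% in the iPSC libraries. In the H3K4me3 libraries the share was 3.01% and 3.70% in MEFs and 2.20% to 2.33% in the other 4. The part of this share in the fall at Gata1 was not tested. Gata3, Gata5 and Gata6 ranged from 0.363 to 0.566, from 0.796 to 1.08 and from 0.386 to 0.482 RPKM over the gene and did not pass in any comparison.

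Profiles of the reads around the TSS show where the reads lay. At Gata5 the H3K4me3 of pre-iPSCs and iPSCs peaked at the TSS and extended upstream of it at a level above that of MEFs, while H3K27me3 had no peak and lay at about the same height across the 10 kb on either side. At Gata4 H3K4me3 rose towards the TSS, and H3K27me3 downstream of the TSS was mostly highest in the MEF libraries. At Gata1 neither mark formed a peak at the TSS.

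**Figure D4:**
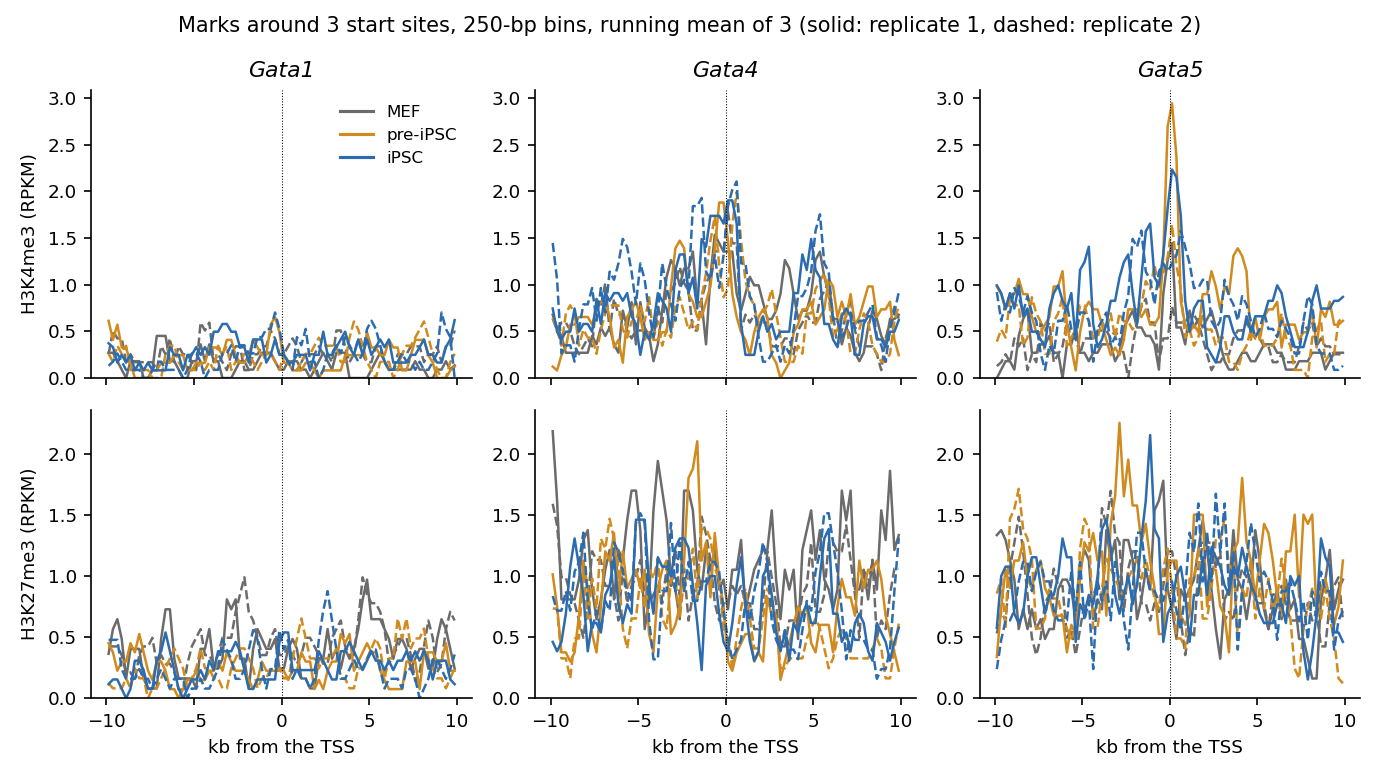
H3K4me3 (above) and H3K27me3 (below) in RPKM within 10 kb of the TSS of Gata1, Gata4 and Gata5, as running means of 3 bins of 250 bp, with solid lines for replicate 1 and dashed lines for replicate 2, against the distance from the TSS in kb in the direction of transcription. The H3K4me3 of Gata5 peaks at the TSS and is lowest around it in the MEF libraries, and Gata1 shows no peak of either mark at the TSS.

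By the rule that a promoter is bivalent with more than 1 RPKM of both marks within 500 bp of the TSS, 0 of 6 members were bivalent in any library, where 0.437% to 0.903% of all promoters were. The count depended on the threshold: with 0.5 RPKM, 2 to 5 members per library were bivalent, where 8.98% to 15.8% of all promoters were, and each member but Gata1 was so in at least 1 library. With 1 RPKM within 1000 bp of the TSS, 0 or 1 member per library was bivalent, Gata2, Gata4 and Gata5 in 1 library each, where 0.347% to 0.858% of all promoters were. Over broader stretches the marks overlapped more often. Reads were summed in windows of 1000 bp, and neighbouring windows with 6 or more reads were joined into islands of at least 60 reads. The TSSs of Gata2, Gata4 and Gata6 lay in overlapping islands of both marks in all 6 libraries, where 14.6% to 32.0% of all TSSs per library did. Gata5 lay in an H3K27me3 island of 162 to 313 kb in each library, and in an H3K4me3 island in every library but the first of MEFs. Gata3 lay in an H3K4me3 island in all 6 libraries and in an H3K27me3 island in the first pre-iPSC library and both iPSC libraries. Gata1 lay in an H3K27me3 island of 19 and 15 kb in MEFs, of 134 and 140 reads, and in no island of either mark in pre-iPSCs and iPSCs. Of all TSSs, 28.2% to 38.1% per library lay in an H3K27me3 island and 64.4% to 70.1% in an H3K4me3 island. The minimum of reads per window was not scaled to the library. The part of the lower chromosome X share outside MEFs in the absence of a Gata1 island was not tested.

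Gata2 and Gata3 have further annotated starts with reads of both marks. Where both marks exceeded 1 RPKM within 1000 bp of such a start, it was only in the first MEF library. At the start of Gata2-202, at -4.77 kb from the RefSeq TSS, H3K4me3 ranged from 0.955 to 1.28 RPKM and H3K27me3 from 0.656 to 1.12. At that of Gata3-201, at -11.4 kb, H3K4me3 ranged from 1.02 to 1.69 RPKM and H3K27me3 from 0.489 to 1.18. At Gata3 this H3K27me3 was above that of the RefSeq TSS in each of the 6 libraries, so the window around the RefSeq TSS does not describe the gene in full.

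Among the H3 libraries, those of the first pre-iPSC and the first iPSC replicate stood apart. Their calls held 108211816 and 94092528 reads, against 67362868 to 82775565 in the other 4, and their median promoter had 0.550 and 0.408 RPKM, against 0.204 to 0.238. Gata2 had 0.179 and 0.230 RPKM of H3 within 1000 bp of the TSS in the MEF libraries, 1.75 and 0.193 in those of pre-iPSCs and 0.780 and 0.303 in those of iPSCs. Gata5 had 0.324 and 0.320 in the MEF libraries, 1.99 and 0.237 in those of pre-iPSCs and 0.848 and 0.308 in those of iPSCs. In both genes the 2 libraries that stood apart were the highest, and the second pre-iPSC library lay near MEFs. Of 6 members and of 19560 promoters 0 were called in any comparison by edgeR's quasi-likelihood test or by DESeq2, with 0 members and 105 to 373 promoters at an unadjusted p below 0.05. Without the second pre-iPSC library Gata2 and Gata5 were called higher in pre-iPSCs against MEFs (log2 changes of 1.62 and 1.16, edgeR adjusted p = 0.00389 and 0.0235), values that rest on the pre-iPSC library that stood apart. The same fit called 1172 of 19598 promoters higher and 3417 lower, so these calls are not particular to the 2 genes. In the 200 bp from -150 to 50 around the TSS of Gata2 no called H3 nucleosome was centred in any of the 6 libraries, and reads outside called nucleosomes were not used. The same held at Gata1 in the first MEF library, at Gata4 in the second pre-iPSC library and at Gata5 in the second MEF and iPSC libraries. The share of all promoters without such a nucleosome was not computed, so nothing particular to Gata2 can be read from this.

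H3K9me3 was measured in 1 library per cell type and could not be tested. Within 1000 bp of the RefSeq TSS, the highest value of the family was that of Gata4 in MEFs, 0.951 RPKM (95% Poisson interval 0.637 to 1.37, 29 reads). Gata4 had 0.405 in the pre-iPSC library (0.216 to 0.693, 13 reads) and 0.562 in the iPSC library (0.328 to 0.901, 17 reads). The MEF level of Gata4 exceeded that of 99.7% of genes, and its interval overlapped the other 2, although the intervals cover counting error only. Gata2 had 0.230, 0.281 and 0.596 RPKM in the same order, from 7, 9 and 18 reads, and Gata5 had 0.426, 0.499 and 0.529. Gata5 thus had the highest value in the pre-iPSC library (95% Poisson interval 0.285 to 0.810) and Gata2 in the iPSC library (0.353 to 0.941). Both intervals overlapped that of Gata4 in the same library, so these ranks lie within counting error. Gata1 had 0.394, 0.187 and 0.165, Gata3 0.164, 0.125 and 0.232, and Gata6 0.262, 0.281 and 0.298. The median promoter had 0.197, 0.218 and 0.265 RPKM, so that Gata2, Gata4, Gata5 and Gata6 lay above it in each cell type and the RefSeq TSS of Gata3 below it in each. The Poisson intervals of Gata3 and Gata6 included the median in each cell type. So did those of Gata2 in MEFs and pre-iPSCs and of Gata4 in pre-iPSCs. Around the start of Gata3-201 H3K9me3 was 1.12, 0.343 and 0.430 RPKM in the same order, from 34, 11 and 13 reads. Its MEF value was above that of Gata4 at the RefSeq TSS but within the 95% Poisson interval of Gata4, so this rank lies within counting error.

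The genes most like each member in log2(FPKM + 1) over the 6 libraries were taken by Pearson's r, as a description of points that share libraries and fall into 3 cell types. They were Barx2, Ly6g6d and 9130017N09Rik for Gata1 (r of 0.998, 0.997 and 0.996), Pld1 and Mtpn for Gata2 (0.999 and 0.998), and 1110034B05Rik, Fam3c and Atg4a for Gata3 (0.993, 0.992 and 0.992). For Gata4 they were Mtfp1, Klf15 and Impa2 (0.993, 0.991 and 0.988), and for Gata6 Mogat2, Nfe2l2 and St6gal1 (0.995, 0.992 and 0.989). No member was among the 3 genes most like another. An r of at least 0.95 was reached by 438 genes for Gata2, 225 for Gata3, 136 for Gata1, 81 for Gata4 and 51 for Gata6, of those with at least 0.5 FPKM on average.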

How the data were processed

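RNA-seq and MNase ChIP-seq libraries of MEFs, pre-iPSCs and iPSCs were grouped by their titles, and libraries titled as repeats are replicate 2. Reads were aligned by the authors to mm9 with Bowtie 1.0.1, unique reads of at most 2 mismatches were kept and moved by 73 bp, and the deposited counts are the reads of each nucleosome called with GeneTrack. The deposited FPKM were computed by the authors with TopHat2 2.0.4 and Cufflinks 2.0.2 for 20156 RefSeq genes, in 2 tables of 1 replicate of every cell type each. Calls held 67362868 to 108211816 reads in H3, 12007350 to 13146349 in H3K4me3, 13224775 to 15222040 in H3K27me3 and 12222861 to 12942154 in H3K9me3 libraries, and reads outside calls were not used here.

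For expression, limma 3.58.1 with a trend was fitted to log2(FPKM + 1) of the 12401 genes averaging at least 0.5 FPKM, all 6 libraries in 1 fit with the table as a term. Reads summed over calls centred in a window went into the quasi-likelihood test of edgeR 4.0.16 (TMM, filterByExpr), without a term for the replicate number, and with DESeq2 1.42.0. Adjusted p are Benjamini-Hochberg values over all genes of a comparison, called below 0.05. RPKM was scaled to the unique reads of each library, taken from the mapping statistics of the study. FPKM values stepped by what 1 fragment is worth, so fragments were estimated from GENCODE transcript lengths (85.6% of 1500 low genes solved within 0.05 fragments or 0.25%) and tested with edgeR as an alternative added after the data were seen. Simulated data with known changes were used to check the tests. Sequences are from NCBIM37. Scripts ran in Python 3.11.15 (pandas 2.3.3, numpy 2.4.6, scipy 1.17.1, matplotlib 3.10.9) and R 4.3.3.

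The members and gene lists were chosen with earlier results of these data known. Every Gata gene is named, with up to 4 called genes of each list per comparison that have the largest change and the 3 genes most correlated with each member, of which 1 for Gata2 is not reported here. Zfpm1, Sox17 and Amn, and Nanog with its values in every library, were named after their values were seen. The lists are GATA cofactors, GATA-type zinc finger relatives and genes of extraembryonic endoderm, trophoblast, heart, blood, endothelium, fibroblasts and pluripotency. Alternatives changed the pseudocount, filters, normalization, tool, window, thresholds, replicate term and the libraries used, and without a library, the single one left of that cell type was taken to vary as the rest do.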

Additional observations from a re-analysis of the deposited data

How the results depend on the processing

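The calls of Gata5 in H3K4me3 from MEFs to iPSCs and of Gata4 in H3K27me3 over the gene were kept in every alternative tried for them, and no called change of a member turned its direction. Of the gene values under alternatives 41 lost a call, 9 gained one and 1081 did neither, and the cause was not tested where none is named. Without the filter on low values 0 members were called in expression in pre-iPSCs against MEFs and 0 in iPSCs against MEFs, against 3 each. That fit tested 20156 genes in place of 12401, and called 0 genes in pre-iPSCs against MEFs (4116 at an unadjusted p below 0.05 by limma), 170 between iPSCs and pre-iPSCs, and 549 between iPSCs and MEFs, where the filtered fit called 2032, 1069 and 3206. DESeq2 called 0 members in H3K4me3 in pre-iPSCs against MEFs and 1 in H3K27me3 over the gene in iPSCs against MEFs, where edgeR called 1 and 3. It called 31 and 119 promoters in H3K4me3 against MEFs where edgeR called 681 and 2433, 54, 0 and 44 in H3K27me3 within 1000 bp of the TSS where edgeR called 843, 83 and 1167, and 2783, 132 and 3514 genes in H3K27me3 over the gene where edgeR called 3775, 187 and 4758. Within 2000 bp of the TSS 2 members were called in H3K4me3 in iPSCs against MEFs, and 2793 of 19119 promoters were called higher there, against 1724 of 17700. For H3K27me3 over the gene, RLE normalization called 2 members in pre-iPSCs against MEFs, and calls of at least 2 reads left 1 in iPSCs against MEFs. Here and below, where members called are counted without the count of all genes, nothing particular to the members can be read. H3K9me3 from calls of at least 2 reads averaged 0.223 RPKM over the members in pre-iPSCs and 0.292 in iPSCs, against 0.296 and 0.397. With a threshold of 0.5 RPKM 5 Gata promoters held both marks in at least 1 library, and within 1000 bp of the TSS 3 did, against 0.

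Leaving out 1 library at a time changed how many members were called in expression in every comparison. It also changed how many were called in H3K27me3 over the gene in both comparisons with MEFs, and in H3 in pre-iPSCs against MEFs. Whether these shifts were particular to the members was not tested.

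With the estimated fragments 2, 0 and 2 members were called, and 52.9% of all calls in pre-iPSCs against MEFs and 52.9% in iPSCs against MEFs were higher, against 45.1% and 39.9%. Scaled to unique reads, 17.0% and 26.2% of the H3K4me3 calls against MEFs were higher in pre-iPSCs and iPSCs, against 79.3% and 70.9% with TMM, and 81.5% and 84.4% of those in H3K27me3 over the gene, against 46.4% and 52.7%. The same scaling put the median log2 change of H3 against MEFs at 0.92 in pre-iPSCs and 0.60 in iPSCs, where TMM gave 0.04 and 0.05.

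Same-numbered libraries did not deviate together in all pairs of cell types: the correlation of their deviations ranged from -0.20 to 0.35 in expression, from -0.04 to 0.12 in H3K4me3, from -0.05 to 0.04 in H3K27me3, from -0.23 to 0.47 in H3K27me3 over the gene and from -0.02 to 0.79 in H3, where the last is the pair of pre-iPSCs and iPSCs. The 0.47 was also that of pre-iPSCs and iPSCs. The methods of the study tie the iPSCs to their pre-iPSC clones, but no source used here ties libraries of the same number to 1 clone. The replicate numbers were therefore not taken to pair the samples, and a pairing of pre-iPSCs with iPSCs by clone could not be modelled. The fit of expression still has a term for the table, which is the replicate number, since the 2 tables were made separately. With the replicate number as a block 1, 0 and 1 members were called in H3K4me3, 1, 0 and 2 in H3K27me3 over the gene, where Gata2 was lost (edgeR adjusted p = 0.0571), and 62 genes in iPSCs against pre-iPSCs in place of 187. Without the block in expression 3, 0 and 3 members were called. Within 1000 bp of the RefSeq TSS, Gata1 had 5 to 12 reads of H3K4me3 and 8 to 14 of H3K27me3, Gata3 had 8 to 18 of H3K27me3, and no member had more than 29 of H3K9me3, which limits the precision of these values.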
